A study of Danio rerio with 8 samples.

Results

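The genes described here are the abundant genes whose mean was nearly the same in the sorted macrophage reporter populations of the injured zebrafish heart. They were chosen by their values. A gene had to reach 200 in all 8 libraries, and the smaller of its means over the 4 double and the 4 single positive libraries had to be at least 0.8 of the larger. Of 10479 gene identifiers in the table, 348 reached 200 in every library, and 155 of these, or 1.48% of all identifiers, had a ratio of the means, double over single positive, within those bounds. Another 94 lay above the upper bound and 99 below the lower one. The level and the ratio of the members are therefore a description and are not tested.

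RNA was sequenced from fluorescent cells sorted out of the hearts of zebrafish (Danio rerio), all adults of 6 to 9 months. All fish were of the line Tg(wt1b:eGFP; mpeg1:mCherry), in which promoters of wt1b, a zinc finger transcription factor gene of the epicardium, and of mpeg1, a gene of macrophages, drive a green and a red fluorescent protein, and all hearts were cryoinjured, that is, damaged by freezing, and taken 4 days later. The single positive group held mpeg1:mCherry cells and the double positive group mpeg1:mCherry/wt1b:eGFP cells, with 4 libraries each, numbered 1, 2, 4 and 5. Each library came from a pool of 5 to 7 hearts, and libraries 1 and 2 of either group were built in library batch 1, libraries 4 and 5 in batch 2. No uninjured heart was part of the comparison, so the levels describe cells of injured hearts as sorted by reporter fluorescence.

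Macrophages take up dead cells and debris after a heart injury and release signals to other cells. To do so they need a dense actin skeleton, lysosomes that digest what was taken up, surface proteins that display peptides to lymphocytes, and transcription factors such as those of the NF-kB family that answer danger signals. Their blood cell origin is marked by the transcription factor PU.1 and the surface phosphatase CD45. Ribosomes, chaperones and the respiratory chain are used by every cell, and their genes are usually among the most abundant in any library.

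The deposited values are called normalized counts. Their column totals ran from 803220 to 1021901, and the reads behind them are unknown. Whether they were divided by gene length is not stated, so a higher value of 1 gene than of another is not read as more RNA. Double positive library 1 stood apart, with 42.3% of all genes under a value of 1 against 10.7% to 19.7% in the other libraries. Among the members it was the lowest of the 8 libraries for 17 and the highest for 22, and without it the same rule gave 153 genes, of which 138 were members. A gene that dropped out in this library could not be a member. These counts therefore do not show that its abundant genes were unaffected. The wt1b message followed the sort, at 0.469, 0.203, 0.122 and 0.122 across the single positive group (libraries 1, 2, 4 and 5 in this order, as for all genes that follow) and at 41.4, 13.6, 63.1 and 22.7 across the double positive group. No identifier with the symbol MPEG1 was a member, though both groups were sorted on the mpeg1 reporter, and only 1 of them was called between the groups. MPEG1 ENSDARG00000043093 had 89.5, 4.98, 10.01 and 16.9 in single positive cells, against 191, 344, 601 and 435 in double positive cells, with no overlap (log2 difference 4.33 ± 0.649, SE, adjusted p = 0.000734, limma). MPEG1 ENSDARG00000055290 had 479.7, 489.8, 302 and 536 against 167, 394, 452 and 395, with overlapping groups (adjusted p = 0.496, limma). MPEG1 ENSDARG00000078569 was at 13.5 or less in every library (adjusted p = 0.985, limma). The label mpeg1:mCherry does not tell which of these identifiers the reporter promoter belongs to.

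The members spanned a wide range of levels. Their means over 8 libraries ran from 249 to 51569 normalized counts, with a median of 481. Together they took up 28.0% to 33.4% of the column total in single positive cells, against 25.6% to 29.9% in double positive cells. The 4 highest members of each library alone held 14.2% to 20.9% in single positive cells, against 13.5% to 17.9% in double positive cells. A symbol was known for 129 of the 155, of which 121 name a characterised gene. Among the 26 identifiers without a symbol, 9 held identical values in all 8 libraries, so the 155 members hold 147 distinct profiles. In all, 67 members belong to at least 1 of 24 lists of cell functions and cell types, and 88 belong to none.

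**Figure D1:**
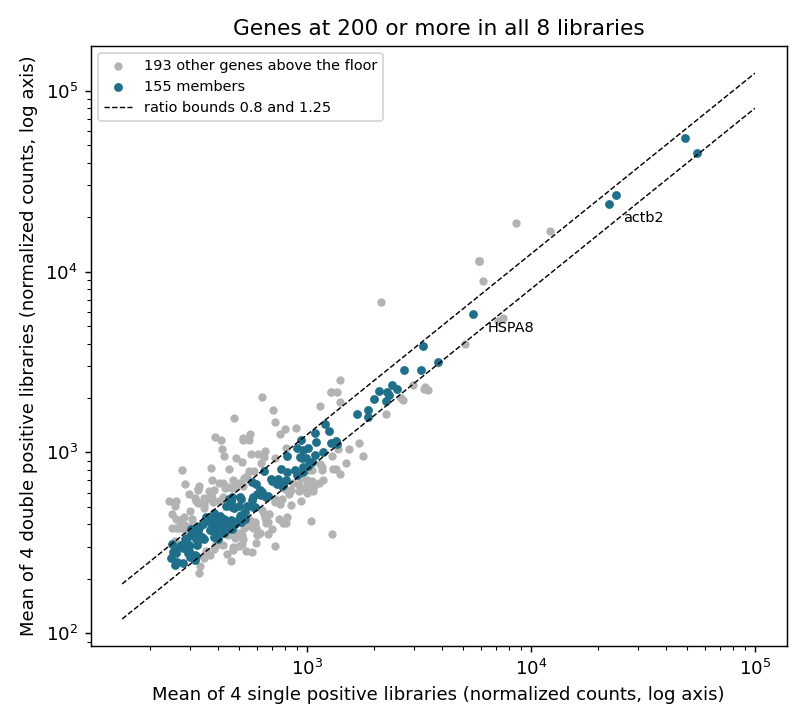
Mean of the 4 double positive libraries against the mean of the 4 single positive libraries, both in normalized counts on log axes, for the 348 genes at 200 or more in every library. The 155 members lie between the dashed lines, which mark the ratio bounds, and actb2 and HSPA8 are the 2 members with a characterised symbol that had the highest mean values.

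Among members with a characterised symbol actb2, a cytoplasmic beta actin, had the highest values. Its normalized counts were 25429, 18670.5, 20089 and 25093 in single positive cells, against 25923, 21871, 27199 and 19668 in double positive cells. The groups overlapped, with means of 22320.3 ± 3447 and 23665 ± 3501 (SD, n = 4 each) and a ratio of 1.06. HSPA8, the constitutive Hsp70 chaperone, had 4929, 5141, 5520.1 and 6437 in single positive cells, against 6069.8, 5457, 6093 and 5601 in double positive cells. Again the ranges overlapped, and the ratio of the means was 1.05. RNF19B, a ubiquitin ligase, had 3261, 2629.7, 3914 and 3402 against 3525, 3685, 4213 and 4056. Its double positive values lay in the upper part of the single positive range or above it, at a ratio of 1.17. KDM6B, a histone H3 lysine demethylase induced in activated macrophages, had 3059, 3171, 3815 and 2878 against 3082, 2519.6, 3259.9 and 2520.2. Here the lowest values were those of double positive libraries 2 and 5, and the ratio was 0.881. PNRC2, a nuclear receptor coactivator that also takes part in messenger RNA decay, had 2513, 2417, 3128 and 2809 against 2946, 2601, 3229 and 2608, with overlapping groups.

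A mean ratio near 1 did not show that a gene was equal in both populations. In the fit of limma over all genes on log2(value + 1), with library batch as a covariate, the standard error of a member's difference had a median of 0.23 on the log2 scale. The 95% interval of the fold, double over single positive, lay wholly within the rule's bounds for 0 of 155 members and wholly between 0.5 and 2 for 155 of 155. Its bounds had medians of 0.711 and 1.39. The fit draws the spread of each gene toward that of genes of similar level. An interval can therefore be wider than the gene's own libraries would give. For nfkb2 the standard error was 0.225, beside a residual SD of 0.017 on the log2 scale. Over all genes above the floor the interval lay between 0.5 and 2 for 62.4%, and over all tested genes for 5.56%. The same fit called 6.69% of 10127 tested genes at an adjusted p under 0.05, and 0 of 155 members at that threshold or at an unadjusted p under 0.05, against 19.1% of all tested genes at the latter. By direction it called 3.88% of tested genes higher and 2.81% lower in double positive cells. The rule chose members on this contrast, so nothing is read from the count of members called or from their intervals staying between 0.5 and 2. The groups of 4 did not overlap for 2 members, MSN and SBNO2, against a background of 14.1%.

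**Figure D2:**
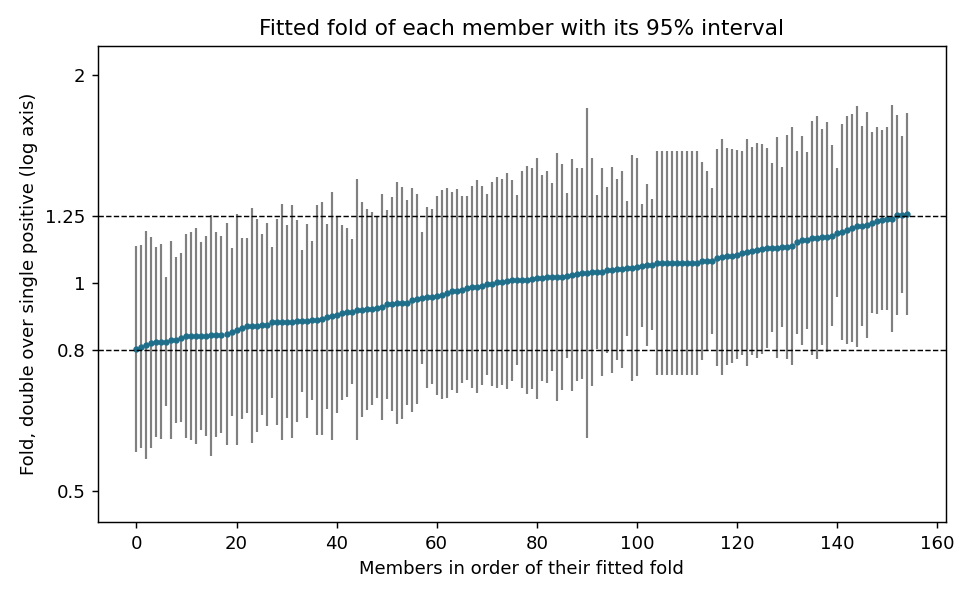
Fold of the double over the single positive population for each of the 155 members, in order of the fold, with its 95% interval from limma (log axis, points are fitted folds and bars are intervals). Every interval crosses at least 1 of the dashed lines, which mark the ratio bounds, and every interval stays between 0.5 and 2. The rule chose members on this contrast, so the latter is a description.

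MSN, the gene of moesin, which ties actin to the cell membrane, sat at the upper edge of the rule. Its normalized counts were 930.4, 985, 1066 and 790.1 in single positive cells, against 1131, 1285, 1116 and 1177 in double positive cells, a ratio of 1.248. Every double positive value was above every single positive one. SBNO2, a transcriptional coregulator known in macrophages, had 620.4, 516, 605 and 642 against 673, 648, 651 and 698, with all 4 double positive values above the 4 single positive ones by a small margin. Other genes lay close to the edges of the rule. Just inside the upper ratio bound were MSN at 1.248 and CHMP2A at 1.241, and just outside were tuba8l4 at 1.25007 and calm3b at 1.26. At the lower bound, cdc42l at 0.803 and MT-ND1 at 0.809 were inside, and si:dkey-193h7.5 at 0.798 and HSP90AB1 at 0.796 outside. At the floor, EEF1D with a lowest value of 200.5 and COX4I1 with 203 were inside, and FLII with 199.7 and eif4a1b with 199 outside.

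Some markers of blood cells and macrophages were members, and their matched means follow from the rule. Of 65 macrophage and myeloid genes in the table, 14 reached the floor and 7 were members, with 6 above the ratio bounds and 1 below. In the whole list limma called 29 genes higher and 5 lower in double positive cells, with a median difference of 1.00 on the log2 scale, against a median of -0.16 over all tested genes. Genes of the list outside the rule, picked after their values were seen, include NCF1 at a ratio of 2.06 and cd68 at 1.43. Among those not at the floor in every library, csf1rb had 0.399 and IRF8 0.220. NCF1 and IRF8 were called (adjusted p 0.00800 and 0.0432, limma), cd68 and csf1rb were not (0.364 and 0.150). The ratio of cd68 was 0.787 in batch 1 and 2.60 in batch 2. The gene of CD45, ptprc, had 963, 763, 1295 and 1036 in single positive cells, against 829, 1222, 1303 and 889 in double positive cells. Its ranges overlapped almost fully, with a ratio of 1.05. CEBPB, a transcription factor of myeloid cells and of inflammation, had 1595, 1157, 1058 and 1307 against 1411, 1149, 1180.1 and 752, with the lowest value in double positive library 5. CORO1A, a coronin that binds actin in leukocytes, had 280.2, 278, 315 and 300.5 against 301, 318, 256 and 242. Batch 1 held the higher double positive values and batch 2 the lower ones. LCP1, the leukocyte actin bundling protein L-plastin, had 432, 296, 394 and 471 against 310.4, 469.6, 391 and 362, with overlapping groups.

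Of 30 genes of antigen presentation measured, 6 reached the floor and 2 were members. Over all genes, 44.5% of those above the floor and 1.48% of all identifiers were members. The member cd74b, an invariant chain of MHC class II molecules, had 2473, 2832, 2323 and 2467 in single positive cells, against 2683, 2248, 2456 and 1593 in double positive cells, with double positive library 5 lowest. Its paralog cd74a lay outside the bounds, at a ratio of 0.736. Of the beta-2-microglobulin genes b2ml was a member and b2m, at a ratio of 0.757, was not.

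Some members belong to NF-kB signalling, for which there was no list, and these were picked after their values were seen. They include the subunits REL, relb and nfkb2, the inhibitor nfkbiaa, the feedback deubiquitinase gene TNFAIP3, the adaptor gene traf3 and the receptor gene cd40. REL had 616, 510.0, 665 and 710.5 in single positive cells, against 545, 509, 748 and 512 in double positive cells, and double positive library 4 was the highest of all 8. For relb the values were 683, 383, 594 and 638 against 649.5, 536, 612 and 459, with a ratio of 0.982 and overlapping groups. The inhibitor nfkbiaa had 2168, 2176, 1956 and 1719 against 1433, 2194, 2649 and 1579. Its double positive values spread wider than the single positive ones, with an SD of 563 against 216. The paralog nfkbiab lay outside the bounds at a ratio of 1.34, with overlapping groups and no call (adjusted p = 0.284, limma). TNFAIP3 had 262, 278, 538 and 464 against 344.99, 463, 697 and 353. Batch 2 held both of the higher single positive values, and double positive library 4 the highest of all. For traf3 the values were 219.6, 330.1, 459.8 and 352 against 404, 304, 387 and 273, with both extremes in single positive cells and a ratio of 1.00.

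The most even member after population and batch was nfkb2, which encodes the NF-kB subunit p100/p52. It had 269, 271, 367 and 372 in single positive cells, against 282, 283, 393 and 379 in double positive cells. Its residual SD after population and batch was 0.017 on the log2 scale, the lowest of all 155. Both populations were 1.37 times as high in batch 2 as in batch 1. Next came HSP90AA1, a stress-inducible Hsp90, with a residual SD of 0.036 and values of 1743, 1754, 2743 and 2852 against 1602, 1633, 2672 and 2779.8. Its batch 2 level was 1.60 times that of batch 1 in single positive and 1.69 times in double positive cells. The residual SD had a median of 0.29 over the members, 0.28 over the other genes above the floor and 1.29 over all tested genes. The floor alone removes the scattered low genes, so this is a description. At the other end stood si:dkey-29l4.4, an uncharacterised gene, with 215, 585, 413 and 648 against 262, 791, 651 and 287 and a residual SD of 0.82.

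**Figure D3:**
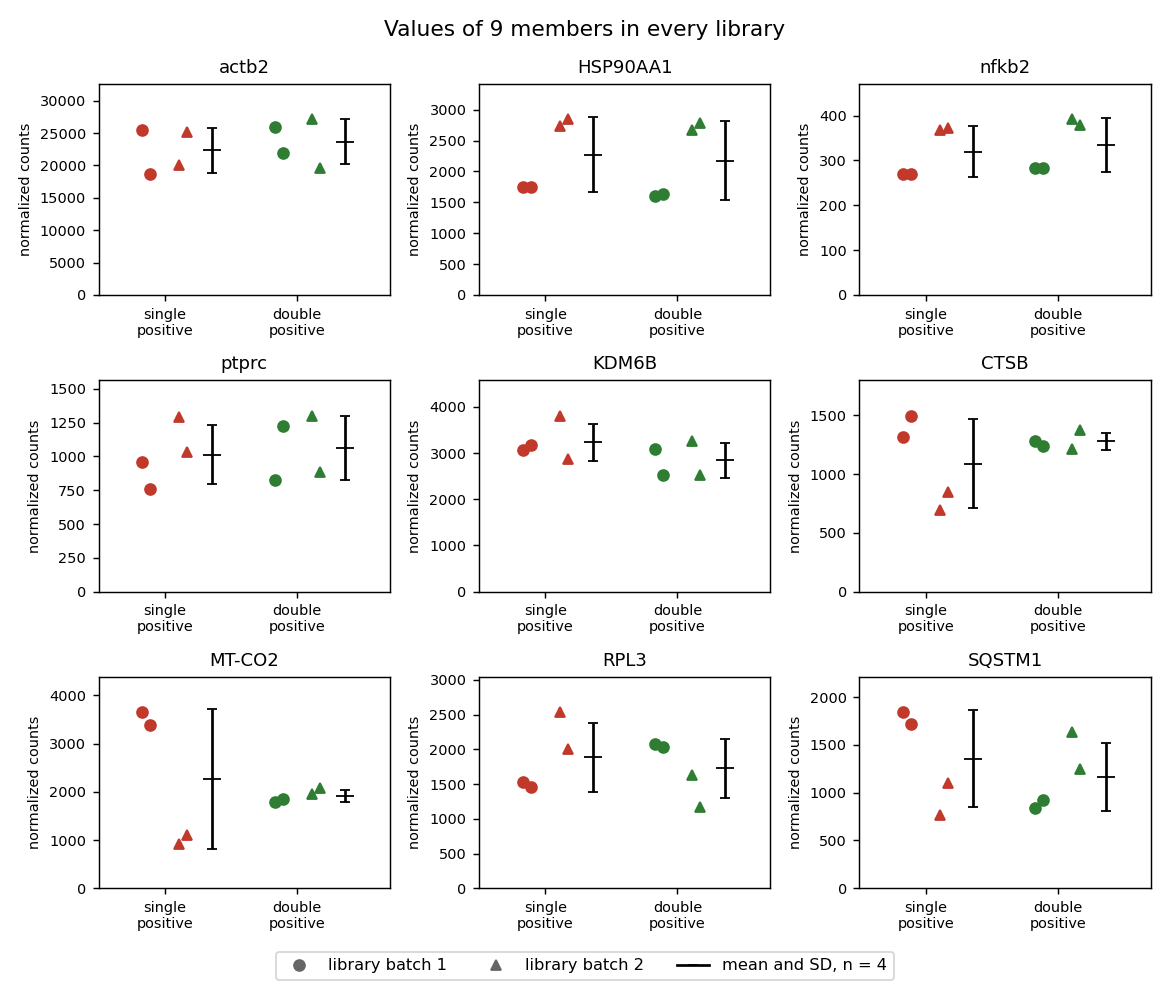
Normalized counts of 9 members in every library, with circles for library batch 1, triangles for batch 2 and the mean and SD of the 4 libraries in black, each axis starting at 0. HSP90AA1 and nfkb2 were higher in batch 2 in both populations, whereas MT-CO2 and SQSTM1 were lower in batch 2 in single positive cells alone.

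Several chaperone members had such a batch pattern. Of 87 measured, 12 reached the floor and 7 were members, with 2 above and 3 below the bounds. Over the whole list limma called 2 higher and 2 lower in double positive cells, with a median of -0.15 on the log2 scale. Of the 7 members 5 were higher in batch 2 than in batch 1 in both populations, beside 30 of all 155 members, 20 of 86 tested genes of the list and 810 of 10127 tested genes. The count was 4 of 7 when columns were scaled to 1000000, centred on their medians or quantile normalized. HSPA2, named after a human Hsp70 gene, had 3011, 2627, 4954 and 4788 in single positive cells, against 2278, 2262, 4511 and 3665 in double positive cells. Batch 2 was 1.73 times as high as batch 1 in the former in the former and 1.801 times in the latter. HSPA4 (ENSDARG00000004754), an Hsp110 type chaperone, had 626, 648, 1080.2 and 1265 against 601, 467, 889 and 1038. The Hsp40 cochaperone dnajb1b had 653, 509, 1182 and 775 against 649, 353, 954 and 681, again with the higher values in batch 2. Related genes outside the bounds were hsp70l at a ratio of 0.741, hsp70.1 at 0.635 and HSP90AB1 at 0.796. Of these only hsp70.1 was called (adjusted p = 0.0157, limma), with 0.0735 for hsp70l and 0.228 for HSP90AB1.

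The rule averages over both library batches, and many members met it only as an average. The ratio lay within the bounds in batch 1 for 108 members, in batch 2 for 95, in each batch for 70 (45.2%) and in neither for 22. Over all tested genes 4.11% were within the bounds in each batch, and over all genes above the floor 20.1%. Of the 193 other genes above the floor it was 0, since bounds met in each batch place the mean ratio within them too. The member share is therefore a description. With 2 libraries per mean, scatter between replicates also moves these ratios, and its part was not tested. In 99 members (63.9%) the ratio was above 1 in one batch and below 1 in the other, against 40.5% of all tested genes. A mean ratio near 1 makes such a split likely, so this count is no finding about the members. It was split evenly, with 50 below 1 in batch 1 and above it in batch 2 and 49 the other way. In 22 members (14.2%) the ratio was outside the bounds in both batches on opposite sides, 19 of them low in batch 1 and high in batch 2. The share was 6.90% over all genes above the floor and 27.2% over all tested genes. Of all tested genes 2358 were below 1 in batch 1 and above it in batch 2, and 1740 the other way. Neither the count nor its direction is read as a finding about the members.

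**Figure D4:**
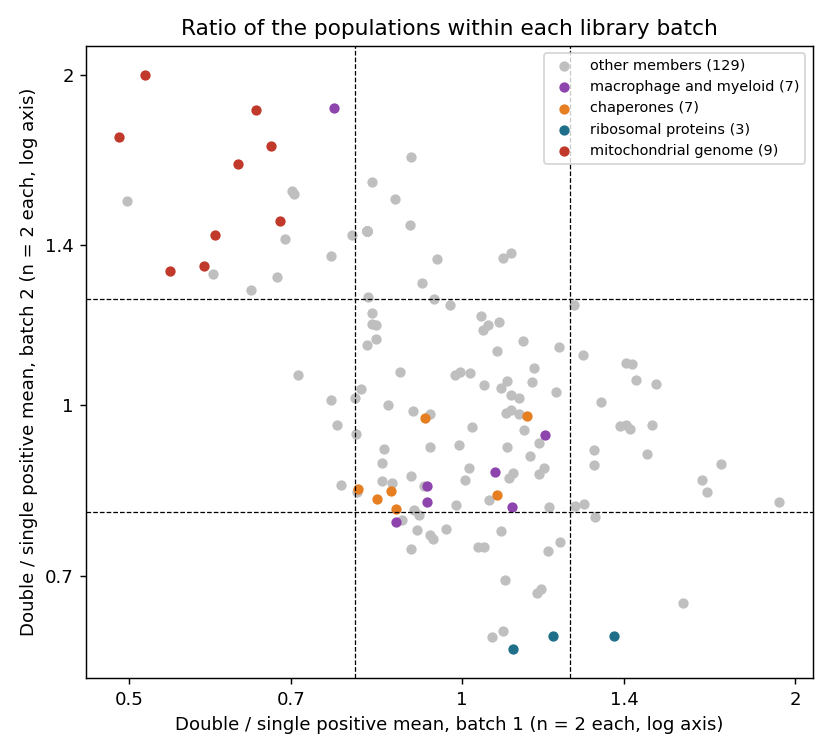
Ratio of the double to the single positive mean in batch 1 (x axis) and in batch 2 (y axis), on log axes with 2 libraries per mean, for the 155 members. The 9 messages of the mitochondrial genome sit at the upper left, below 1 in batch 1 and above 1 in batch 2, and the 3 ribosomal protein genes at the lower right.

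Messages of the mitochondrial genome, which encode subunits of the respiratory chain and of ATP synthase, were the clearest group of this kind. Of 13 measured, 10 reached the floor and 9 were members. All 9 had a ratio below 1 in batch 1 and above 1 in batch 2, with median ratios of 0.597 and 1.66. They did so also with columns scaled to 1000000 or quantile normalized, whereas with median centring 6 of 9 were below 1 in batch 1. The rule makes opposite sides of 1 likely for a member, so this is a description. Of the 13 measured, 11 had that split. MT-ND3, under the floor, was below 1 in both batches, at 0.187 and 0.856, and MT-CO1 was above 1 in both. In single positive cells the batch 2 level had a median of 0.453 of the batch 1 level, and in double positive cells 1.15. MT-CO2, a subunit of cytochrome c oxidase, had 3653, 3389, 909 and 1107 in single positive cells, against 1783, 1858, 1957 and 2075 in double positive cells. The double positive values were close to each other, and the single positive ones lay above all of them in batch 1 and below all of them in batch 2. MT-CYB, the cytochrome b of complex III, had 3374, 3532, 1407 and 1274 against 1911, 2589, 2677 and 2301. MT-ND1, of complex I, had 1376, 1512, 481 and 493 against 596, 819.8, 1009 and 699, and MT-ND6 had 1088, 1091, 484 and 615 against 733, 761, 855 and 764. In each of these 3 genes too, both single positive libraries of batch 1 were above and both of batch 2 below every double positive library. Not every member of the group had this separation. In MT-ND5 the lowest double positive value, 1190, lay below a single positive value of batch 2, 1411. The same held for MT-ATP6, at 739 and 982. The mean ratios, 0.847 for MT-CO2, 0.989 for MT-CYB, 0.809 for MT-ND1 and 0.949 for MT-ND6, thus average opposite values. MT-CO1, the remaining mitochondrial gene above the floor, was outside the bounds with a ratio of 1.45, being 1.09 in batch 1 and 2.04 in batch 2.

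Whether the population difference was the same in both batches was tested as an interaction in limma over all genes, a contrast that the rule did not use. At an adjusted p under 0.05 it called 10 of 10127 genes, or 0.0987%, all with a higher difference in batch 2, and 971 (9.59%) at an unadjusted p under 0.05. Among the members 2 were called, and 26 of 155 had an unadjusted p under 0.05, or 16.8%, beside 31 of 193 (16.1%) among the other genes above the floor. The first was MT-CO2, with an interaction of 1.96 ± 0.267 (SE) on the log2 scale and an adjusted p of 0.0122 in limma. The second was ENSDARG00000080337, an identifier without a symbol, with 0.99 ± 0.166 (SE) and an adjusted p of 0.0458 in limma. It had 82408, 79267, 32143 and 27439.9 in single positive cells, against 51999.7, 52092, 38140.3 and 37756 in double positive cells, so that all libraries of batch 1 were above all of batch 2. Both calls depended on the fit. With a pseudocount of 10, or with a filter on a mean of at least 10, 1 member was called. The interaction of MT-CO2 lost its call with median centring, without the mean-variance trend, and without double positive library 1, 4 or 5 or single positive library 1, 2 or 4, the libraries giving adjusted p from 0.0640 to 0.181 in limma. The interaction of ENSDARG00000080337 lost its call in the same scaling and without the trend, and also without any 1 of the 8 libraries, at adjusted p from 0.0764 to 0.411 in limma.

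All 9 mitochondrial members had an unadjusted interaction p under 0.05 in limma, with a median interaction of 1.39 on the log2 scale, while only MT-CO2 passed the adjustment. This was not particular to members: 12 of the 13 mitochondrial messages measured were under 0.05, MT-CO1 among them. The median interaction was -0.05 over the members and 0.56 over all tested genes, and with median centring these became -0.64 and -0.02. Without double positive library 1 they were -0.01 and 0.21. The remaining members of the respiratory chain list, COX4I1 and slc25a55a, are encoded in the nucleus. They had ratios of 1.17 and 1.00 in batch 1 and of 0.923 and 0.855 in batch 2. The list was matched on symbols, and slc25a55a, named as a solute carrier, need not belong to the respiratory chain.

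The cardiomyocyte and fibroblast sums had the orientation of the mitochondrial messages, though the fibroblast ranges of the populations overlapped in batch 1. The macrophage, lysosomal, iron and glycolysis sums were lower in batch 2 in single and higher in double positive cells. They were, however, higher in double than in single positive cells in both batches. Lymphocyte sums had neither pattern. Of 65 macrophage genes 7 had a ratio below 1 in batch 1 and above 1 in batch 2, and 5 the reverse. Of 55 lysosomal genes it was 11 and 4, and of 10127 tested genes 2358 and 1740. The summed level of 13 cardiomyocyte markers was 342 to 397 in single positive libraries of batch 1 and 99.7 to 170.2 in those of batch 2, and 194 to 248 and 309 to 402 in double positive libraries. Likewise 13 fibroblast and epicardial markers summed to 1389 to 2081 and 271 to 390 in single positive cells, and in double positive cells to 837 to 1551 and 2441 to 3596. The 65 macrophage and myeloid genes summed to 21560 to 23669 and 18269 to 19427 in single positive cells. In double positive cells they summed to 25669 to 27107.5 and 28286 to 35135. The 55 lysosomal genes had 12454 to 13944.5 and 7111 to 9249, against 17406 to 17827 and 20836 to 21201. The 56 iron and antioxidant genes had 5339 to 5781 and 3177 to 4162, against 6261 to 7301 and 7846 to 8167. For 27 glycolysis genes the sums were 3207 to 3630 and 2874 to 3140, against 3842 to 4812 and 4821 to 4909. Over all tested genes the batch 2 level had a median of 0.766 of the batch 1 level in single positive cells. In double positive cells that median was 0.985. The part of any of these lists in the result was not tested. In bulk samples fewer cells of a type and less RNA per cell cannot be told apart. None of the cardiomyocyte, fibroblast and epicardial, neutrophil, lymphocyte, erythroid, thrombocyte or endothelial markers reached the floor of 200 in all 8 libraries. No member therefore comes from those lists of other cell types, and 0 of their markers were under 1 in all 8 libraries. The summed level of 9 lymphocyte markers was 357 to 452 in batch 1 and 393 to 847 in batch 2 in single positive cells, and 14.3 to 47.6 and 39.0 to 72.0 in double positive cells. For 10 endothelial markers it was 865 to 1057 and 537 to 699 in single positive cells, against 104 to 269 and 157 to 220.1 in double positive cells. Neutrophil markers (5) had 68.1 to 89.5 and 15.2 to 47.5, against 116 to 164 and 147 to 253. Thus endothelial and neutrophil sums too were lower in batch 2 in single positive cells. Thrombocyte markers (2) had 25.1 to 31.5 and 0.102 to 2.28, against 2.36 to 18.2 and 26.1 to 44.3, and erythroid markers (4) had 3.87 to 246 and 7.90 to 16.9, against 2.22 to 16.4 and 16.7 to 52.3. The thrombocyte sums had the orientation of the mitochondrial messages, and the erythroid sums of single positive cells overlapped between the batches.

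SQSTM1, SPI1 and cd40 are described next because their batch ratios were far apart, and were taken for that. Among the macrophage and myeloid members 1 of 7 was below 1 in batch 1 and above 1 in batch 2, as the mitochondrial messages were, and 3 of 7 were the reverse. Among the lysosomal members it was 2 of 3 and 0 of 3. The NF-kB genes relb, at 1.112 and 0.869, and traf3, at 1.29 and 0.814, were the reverse. SQSTM1, the autophagy receptor p62, had 1842, 1714, 767 and 1104 in single positive cells, against 842, 928, 1632 and 1242 in double positive cells. Its ratio was 0.498 in batch 1 and 1.54 in batch 2, and the interaction of 1.64 on the log2 scale did not pass the adjustment (adjusted p = 0.129, limma). SPI1, named after the human gene of PU.1, had 590.4, 525, 389 and 339.6 against 368, 487, 674 and 686, with a ratio of 0.766 in batch 1 and 1.87 in batch 2 (adjusted p = 0.282, limma). The receptor cd40 had 919, 942, 634 and 587 against 578, 728, 1044 and 870.4, at 0.702 and 1.57 (adjusted p = 0.282, limma). With median centring the batch 1 ratio of SQSTM1 stayed below 1, and those of SPI1 and cd40 were 1.19 and 1.101.

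CTSB, the lysosomal protease cathepsin B, had 1311, 1497, 695 and 845 against 1283, 1239, 1216 and 1376, with even double positive values and single positive ones that were lower in batch 2. IGF2R, the receptor that brings enzymes to lysosomes, had 341, 335, 328 and 469 against 415, 406, 358 and 462, with a ratio of 1.21 in batch 1 and 1.03 in batch 2. These and SQSTM1 were the 3 members among 11 lysosomal genes above the floor, and the other 8 were above the ratio bounds. Of the 55 lysosomal genes in the table limma called 20 higher and 1 lower in double positive cells, with a median of 0.89 on the log2 scale.

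The 3 ribosomal protein members had the reverse orientation, while most other genes of that list were lower in double positive cells in both batches. Of 78 measured, 35 reached the floor, but 32 of these were below the lower bound and 3 were members. Over the list limma called 0 higher and 27 lower in double positive cells, with a median of -0.73 on the log2 scale. The ratio was above 1 in batch 1 and below 1 in batch 2 for 4 of the 35 and for 9 of the 78, and the median ratios of the 35 were 0.722 and 0.557. RPL3 had 1536, 1461, 2535 and 2004 in single positive cells, against 2072, 2035, 1627 and 1173 in double positive cells. The double positive values were above the single positive ones in batch 1 and below them in batch 2. RPL8 had 1041, 914, 1246 and 1027 against 1165, 1006, 875 and 489, and RPL10 had 489, 422, 694 and 407 against 541, 559, 423 and 256. In all 3 the ratio was above 1 in batch 1 and below 1 in batch 2, as it was under each of the 3 other scalings, with values of 1.37 and 0.617 for RPL3, 1.111 and 0.5997 for RPL8 and 1.21 and 0.617 for RPL10. Their interactions did not pass the adjustment (adjusted p 0.237 for RPL3, 0.477 for RPL8 and 0.534 for RPL10, limma).

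Of 11 genes of the translation factor list above the floor 6 were within the bounds, beside 44.5% of all genes above the floor. Of the 64 in the table limma called 0 in either direction (median -0.26 on the log2 scale). The poly(A) binding protein gene pabpc1a had 615, 607, 817 and 754 in single positive cells, against 736, 698, 699.8 and 661 in double positive cells, with means of 698 ± 104 and 699 ± 30.5 (SD, n = 4 each). Its groups overlapped and its double positive values were the closer ones. EIF3A, a scaffold subunit of initiation factor 3, had 724, 603, 1029 and 617 against 874, 753, 556 and 680.4. Genes of splicing and RNA binding counted 6 members among 9 above the floor, the other 3 being below the bounds, and limma called 1 higher and 2 lower of 140 in the table. YBX1, a cold shock domain protein that binds messenger RNA, had 923, 763, 916 and 1029 against 1234, 1240.2, 989 and 769.9, higher in double positive cells in batch 1. The cold-inducible RNA binding protein gene cirbpb had 2419.6, 1559, 2863 and 2436 against 2594, 2093, 1740.3 and 1866.

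Cytoskeletal genes were divided between the member class and both sides of it. Of 15 actin cytoskeleton genes above the floor, 6 were members, 5 lay above and 4 below the bounds, and limma called 6 higher and 2 lower of 72 in the table. Beside actb2, LCP1 and CORO1A the members included CFL1, the actin severing cofilin, and cdc42l, of the Cdc42 GTPase type. The other beta actin, actb1, was outside the bounds at a ratio of 1.59 while actb2 was at 1.06. Reads of such near-identical genes could be split by the authors' counting, so both values are uncertain. The keratin gene krt8, chosen after its values were seen, had 2639.9, 2550.3, 1246 and 1952 against 1981, 2146, 2595 and 1979, with ratios of 0.795 in batch 1 and 1.43 in batch 2. Its partner krt18b was outside the bounds at 1.68.

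Immediate early and stress genes, which are switched on within minutes to hours of a stimulus such as cell isolation, counted 5 members among 11 above the floor, with 2 above and 4 below the bounds. Over the list of 81 limma called 2 higher and 13 lower in double positive cells. FOSB, a subunit of the transcription factor AP-1, had 1536, 1329, 952 and 925 in single positive cells, against 1299, 910.1, 1229 and 576 in double positive cells, with double positive library 5 lowest. FOSL2, another AP-1 subunit, had 973, 939, 641 and 694 against 957, 772, 587 and 484, and was higher in batch 1 in both populations. For atf4b, a transcription factor of the stress response to unfolded proteins and amino acid shortage, the values were 567, 566, 539 and 612 against 615, 445, 523 and 606, with an SD of 30.4 in single positive cells, against 79.7 in double positive cells.

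The remaining lists gave fewer members. Glycolysis held 2 members among 4 genes above the floor, ALDOA and GAPDHS. ALDOA, an aldolase, had 332, 253, 249 and 207 in single positive cells, against 378, 253, 299.7 and 243 in double positive cells, with library 1 highest in each population. GAPDHS, named after a glyceraldehyde phosphate dehydrogenase, had 588, 434, 389 and 479 against 312, 466, 499.5 and 689, with both extremes of the range in double positive cells. Histone and chromatin genes held 4 among 7, vesicle traffic 5 among 10, and iron and antioxidant genes 2 among 5. The list of G proteins and 14-3-3 proteins held 2 among 6, ppp1r15a being one. The RNA polymerase II and transcription list held 1 among 2, elf1, and the proteasome and ubiquitin list 0 of 1. Lists were matched on the spelling of symbols, so a gene such as ppp1r15a need not belong to the family that names its list. The histone H3.3 gene h3f3d had 369, 438, 522 and 465 against 536, 621, 551 and 489, and was mostly higher in double positive cells, at 1.22. TXN, thioredoxin, had 316, 325, 249 and 236 against 356, 346, 216 and 262, higher in batch 1 in both populations. Heme oxygenase gene hmox2b had 227, 283, 306 and 235 against 228, 233, 222 and 312. Double positive library 5 was above the rest of its group. CHMP2A, of the ESCRT-III complex that cuts membranes, had 241, 282, 341 and 348 against 504, 390.5, 383 and 227, with both the highest and the lowest value in double positive cells.

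Members outside every list, named after their values were seen, include transcription factor genes that answer the surroundings of a cell. HIF1A, the factor stabilised by low oxygen, had a ratio of 0.870 in batch 1 and 1.54 in batch 2. XBP1, a factor of the unfolded protein response, had the reverse, 1.65 and 0.855. For ahr2, an aryl hydrocarbon receptor, both batches were above 1, at 1.28 and 1.111. In none of these 3 did the interaction pass the adjustment (adjusted p 0.536, 0.495 and 0.925, limma). A pair of genes named after muscle proteins also met the rule. TNNI2, named after a troponin I, had 397, 474, 292 and 388 in single positive cells, against 297, 419, 490.3 and 363 in double positive cells, and sgcg, a sarcoglycan, had 514, 543, 691 and 642 against 726, 539, 595 and 483. Their groups overlapped, with ratios of 1.01 and 0.980, and neither belongs to the cardiomyocyte marker list.

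The set itself depended on how the columns were scaled. Scaled to 1000000 each, the rule gave 161 genes of which 128 were members, and with quantile normalization 143 genes of which 121 were members. With median centring it gave 137 genes, of which 69 were members, and the median ratio of the members became 1.23. Against the low median of double positive library 1, at 7.21 where the others had 12.6 to 20.4, this scaling lifts the abundant genes of that library. Of the 155 members 99 met the rule without any 1 of the 8 libraries, 39 under each of the 3 scalings, and 33 under all of these.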

How the data were processed

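RNA from 1 ng of total RNA per library was amplified and read single-end over 60 to 61 bases, per the labels' protocols. Per the submitters' processing notes, the tools were CASAVA 1.8.2, cutadapt and RSEM 1.2.3 and the genome build Zv9, with no role stated for a tool. As deposited, each library has its own column of a linear signal, which the authors named normalized counts, and no value is 0. How they were normalized, and whether library batch was adjusted for, are points not given in the sources used here, so read depth is unknown and no counting interval is given. The labels do not tie libraries of equal number to the same hearts, and these were not paired.

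Groups and batches follow the labels. The rule for members was applied to the deposited values. A gene was tested if it reached 1 per 1000000 of the column's sum in 4 or more of the 8 libraries, which held for 10127 genes and left out 352. All 155 members were tested. The moderated test of limma 3.58.1 (R 4.3.3) was run on log2(value + 1), with a mean-variance trend, two-sided, with library batch as a covariate, and a call needed an adjusted p under 0.05 (Benjamini-Hochberg, over all tested genes). Folds on this scale understate changes of low genes. The fits were tested on simulated data. The interaction term compared the population difference between batches.

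Symbols were matched to 8512 identifiers (81.2%), those in capitals follow the human gene, and a symbol held by several identifiers is given with the identifier. How reads of near-identical paralogs were assigned is not stated. The members and lists were chosen with earlier results of these data known. Named genes were the reporter drivers, the 12 members of highest mean with a characterised symbol, up to 4 of each list, those next to the bounds, the 5 with the lowest and highest residual SD, and those with the smallest interaction p. Others, and all family partners outside the bounds, were chosen after their values were seen. Alternatives covered floor, bounds, scaling, pseudocount, filter, trend, replicate block and each library left out. Identical profiles were counted as 1 only as an alternative chosen after seeing the data.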

Additional observations from a re-analysis of the deposited data

Results flagged for a closer look

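In 3 of 104 groups of 4 libraries, from 52 members given by library, 1 library stood far from the other 3 by Dixon's criterion at 95%. Chance alone flags about 1 in 20 groups. IGF2R had 469 in single positive library 5 against 328 to 341 in the rest of that group. REL had 748 in double positive library 4 against 509 to 545 in the others of its group. The heme oxygenase gene hmox2b had 312 in double positive library 5 against 222 to 233. Double positive library 1, which had the most low genes, gave 0 of these values.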

How the results depend on the processing

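The number of members moved with the rule, to 306 at a floor of 100, 49 at a floor of 500, 77 at tighter ratio bounds starting at 0.9, 242 at wider ones of 0.67 to 1.5 and 70 with the ratio within bounds in each batch. With identical profiles counted as 1 it was 147. Leaving out 1 library at a time gave 148 to 169. Of 876 ratios of 73 named genes under other settings, 851 stayed within 1 SD of the libraries. These settings included each library left out. Leaving out 1 library moves the mean of its group by less than 1 SD of that group, whatever the values. Those outcomes were thus largely fixed in advance, and the count is no sign of stability. The median ratio of the members was 1.23 with median centring. It was 0.915 with columns scaled to 1000000 and with quantile normalization.

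The count of 678 genes that differed between populations was 319 without the mean-variance trend and 270 to 805 without 1 library, the lowest without double positive library 5 and the highest without double positive library 1, and was 321 when double positive library 4 was left out, 357 for single positive library 4 and 386 for single positive library 5. Among them the calls of members stayed at 0 under every setting run. Members were chosen on this contrast, so this is a description and no sign of stability. At an unadjusted p under 0.05 in limma there was 1 member with quantile normalization and 1 without single positive library 4. There were 2 without double positive library 4 and 2 without double positive library 5. Median centring changed the split of higher to lower calls from 393 and 285 to 542 and 220, and moved the median over all tested genes from -0.16 to 0.12 on the log2 scale and that of the members from 0.01 to 0.29.

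The count of 10 genes with an interaction, all above 0, was 18 with median centring, 15 above 0 and 3 below. It was 43 with quantile normalization, 36 above 0 and 7 below. Without the mean-variance trend it was 0, where 976 genes had an unadjusted p under 0.05 in limma. Without 1 library it ran from 0 to 208. It was 0 without single positive library 1, double positive library 4 or double positive library 5, with 824, 608 and 652 at an unadjusted p under 0.05 in limma, and 208 without double positive library 2. Leaving out single positive library 2, 4 or 5 gave 3, 4 and 18. Members called ran from 0 to 6. With the replicate block 18 genes had an interaction called, 3 of them members, and the population count was 473. For same-numbered libraries the deviations from the mean of each population correlated at -0.29 to -0.11. Of 4 single positive libraries, 0 correlated best with their own number. These deviations still hold the batch difference, so they cannot tell whether same-numbered libraries shared hearts. Deviations within a batch correlated at 0.0147 in batch 1 and 0.00014 in batch 2, from 2 libraries per population, and pairing was not settled. The interaction of MT-CYB passed the threshold with quantile normalization (adjusted p = 0.00161) and without double positive library 2 (0.0162), and the interaction of MT-ND1 likewise (0.0298 and 0.0194), all in limma. The cause was not tested in any of these cases. Depth is unknown, and no member's interval in limma, which shares spread between genes, lay within the rule's bounds.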
